A study of Mus musculus with 6 samples.

Results

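The nuclear genes for the mitochondrial respiratory chain and ATP synthase were followed across mouse embryo heads of 3 genotypes at Prdm15, with the tm1a insertion allele on neither, either or both chromosomes. Prdm15 encodes a PRDM-type protein with zinc fingers. Genes were taken by symbol, as all rows of the series table that begin with Ndufa, Ndufb, Ndufc, Ndufs or Ndufv, are Sdha, Sdhb, Sdhc or Sdhd, or begin with Uqcr, Cox4 to Cox8 or Atp5, which gave 92 genes of 24062. By complex these are 43 genes of complex I, 4 of complex II, 8 of complex III, 20 of complex IV and 17 of complex V. The symbols also take in 7 assembly factors of complex I (Ndufaf genes), 8 tissue isoforms of complex IV, the supercomplex factor Cox7a2l, and Atp5s and Atp5sl, which leaves 74 broadly expressed structural subunits. Ndufa4, whose protein is now assigned to complex IV, and its relative Ndufa4l2 are counted there. Atp5s and Atp5sl, whose current symbols are Dmac2l and Dmac2, are not structural subunits and are counted with complex V by symbol only. Positions in brackets are those of RefSeq on GRCm38.p6. A filter on low counts left 88 genes for testing, and Cox6a2, Cox7b2, Cox8b and Cox8c were not tested.

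The respiratory chain sits in the inner mitochondrial membrane. Complex I takes electrons from NADH and complex II from succinate, ubiquinone carries them to complex III, cytochrome c carries them on to complex IV, which reduces oxygen, and complex V, the ATP synthase, uses the resulting proton gradient to make ATP. All subunits of complex II and most subunits of the other complexes are encoded in the nucleus, while a small set comes from mitochondrial DNA. The mitochondrial genes are not analysed here. In the early embryo the heart and the visceral endoderm of the yolk sac are tissues known for many mitochondria.

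All embryos were on a C57BL/6 background at embryonic day 8.5, and no other allele or agent is given in the labels. The groups were wild type (Prdm15 tm1a+/+), heterozygous (Prdm15 tm1a+/-) and mutant (Prdm15 tm1a-/-), with 2 libraries each of polyA-selected RNA from dissected heads, read as stranded paired-end libraries. Libraries held 29412227 to 40439234 reads in genes. Litters and batches are not named, and p-values here cover no more than the spread among these 6 libraries.

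The count files attached to wild-type library 2 and mutant library 1 bear each other's titles. Each count file shared the zeros of the RPKM column that bears its title (0 of 24062 genes with another zero status) and 100% of its count to RPKM ratios lay within 0.1% of 1 constant, so files were taken by title throughout. With the files as attached, 0 of 88 genes passed in mutant against wild type and 0 in heterozygous against wild type, and the median log2 fold changes were -0.0103 and -0.0153.

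Prdm15 itself had 35.2 and 32.6 CPM (counts scaled to library size) in wild-type heads, then 28.3 and 31.8 in heterozygous and 26.6 and 32.0 in mutant heads. The change in mutant was -0.21 ± 0.12 (log2, SE, adjusted p = 0.221), and reads outside an inserted cassette do not check a tm1a label. Markers of neighbouring tissues differed between the groups. The summed CPM of 18 yolk sac endoderm markers (such as Afp and Apoa1) was 302 and 305 in wild type, 3672 and 2726 in heterozygous and 6345 and 5320 in mutant libraries. The summed CPM of 20 heart markers (such as Myh6 and Tnnt2) was 297 and 136, 2071 and 3259, and 2521 and 1432. Markers of the head differed among themselves. The sums of 13 head region markers were 490 and 364 CPM in wild type, 314 and 349 in heterozygous and 169 and 105 in mutant libraries. Those of 10 neural progenitor markers were 1163 and 1101, 831 and 982, and 602 and 650 CPM. For 9 head mesenchyme markers they were 307 and 339, 403 and 402, and 443 and 514 CPM. The sums of 14 trunk and tail bud markers were 45.6 and 18.8 CPM in wild type, 59.8 and 71.3 in heterozygous and 103 and 281 in mutant libraries. No yolk sac, heart, head region or neural marker was at 0 in every library, 1 of 12 erythroid markers was, and their sums were 176 and 260, 8.39 and 244, and 34.6 and 15.3 CPM. The part of these markers in the results that follow was not tested, and in whole-head RNA a change in the cells that make up a sample and a change of RNA per cell cannot be told apart.

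Many, but not all, respiratory chain transcripts were higher in mutant than in wild-type heads. Of the 88 genes tested, 46 rose, 42 did not pass and 0 fell in mutant against wild type (edgeR quasi-likelihood test, Benjamini-Hochberg over 15187 genes), where 17.1% of all genes tested rose and 13.6% fell. The median log2 fold change of the 88 genes was 0.28, a 1.21-fold difference, beside -0.02 over all genes. Values above 0 were found in 81 of the 88 genes, beside 48.2% of all genes. The rise was small in each gene: among the 46, log2 fold changes ran from 0.20 to 1.61 with a median of 0.36, and 1 gene, Cox7a1, was over 2-fold. Both mutant libraries lay above both wild-type libraries in 78 of 88 genes, beside 34.9% of all genes tested. Leaving out 1 library moved the count of genes that passed: it was 20 without wild-type library 1 (10.4% of all genes), 23 without wild-type library 2 (12%), 18 without mutant library 1 (8.48%) and 19 without mutant library 2 (11.1%), while the median stayed between 0.25 and 0.29. In each of 6 fits that left out 1 library, 15 genes passed: Ndufa12, Ndufs6, Ndufs7, Ndufs8, Uqcr11, Uqcrq, Cox5a, Cox6a1, Cox7c, Cox8a, Atp5c1, Atp5d, Atp5g3, Atp5o and Atp5sl.

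**Figure D1:**
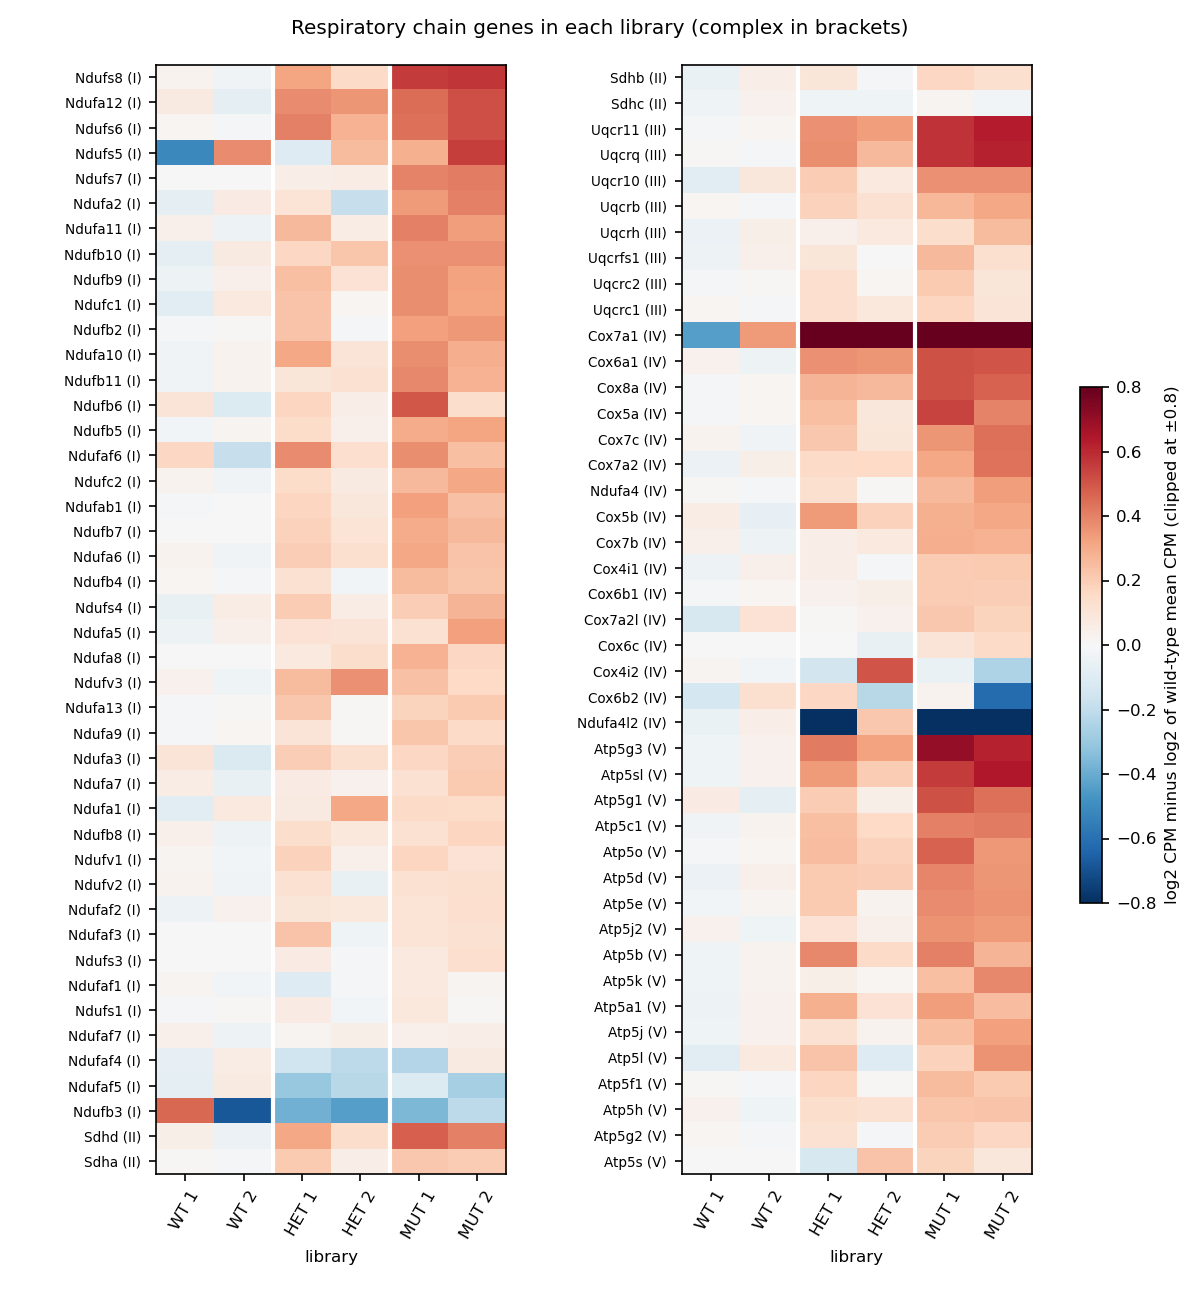
Colour shows the log2 CPM of 87 of the tested genes minus the log2 of its mean wild-type CPM (clipped at 0.8 in either direction), with 1 column per library (WT wild type, HET heterozygous, MUT mutant) and genes ordered by complex and by change. Both mutant libraries are above both wild-type libraries in 77 of the 87 genes drawn.

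Xist, which marks an inactive X chromosome, was read at 1314 CPM in wild-type library 2 and at 1274 and 1100 in both mutant libraries. The other libraries, with both heterozygous ones among them, had 0.266 to 0.354 CPM. Between mutant and heterozygous libraries, genotype and embryo sex as read from Xist therefore cannot be told apart. Wild type alone held libraries of both kinds, so a term for high Xist compares the mutant libraries with wild-type library 2. It compares the heterozygous libraries with wild-type library 1. The term is thus no check apart from leaving out the other wild-type library. A fit with a term for high Xist left 19 genes higher and 0 lower in mutant, with a median of 0.27, where 10.3% of all genes rose. With libraries scaled to the summed cytosolic ribosomal protein genes, which moved the median of all genes to -0.15, 21 genes were higher and 0 lower, and the median of the 88 genes was 0.15. Under that scaling 13.2% of all genes rose and 25% fell.

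In complex I, the NADH dehydrogenase, 14 of 43 genes rose (32.6%, beside 17.1% of all genes tested), with a median log2 fold change of 0.23. With the Xist term 4 of the 43 rose, where 10.3% of all genes did. With ribosomal protein scaling 4 rose, where 13.2% of all genes did. Of its 7 nuclear core subunits, which carry the flavin and the iron-sulfur clusters, Ndufs7 and Ndufs8 rose. Ndufs8 (chr19:3908863-3912774) was at 23.3 and 22.4 RPKM (reads scaled to transcript length and library size, as deposited) in wild type, 28.5 and 25.4 in heterozygous and 33.4 and 33.9 in mutant libraries. The 3 genotypes did not overlap in Ndufs8, and its log2 change in mutant was 0.57 ± 0.08 (SE, adjusted p = 0.00649). Ndufs7 was at 41.1 and 40.8, 42.5 and 42.6, and 53.5 and 54.3 RPKM, so that heterozygous libraries lay near wild type and mutant libraries apart from both (0.41 ± 0.06, adjusted p = 0.00808). The core genes Ndufs1, Ndufs3, Ndufv1 and Ndufv2 had log2 fold changes of 0.05 to 0.14 and did not pass.

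Among the 29 accessory subunits of complex I, which surround the core, 12 rose (41.4%) and 0 fell, beside 17.1% and 13.6% of all genes tested. Ndufa12 (chr10:94199035-94221440) was at 91.7 and 82.6 RPKM in wild type, 113 and 111 in heterozygous and 118 and 124 in mutant libraries (0.48 ± 0.07, adjusted p = 0.0077). Ndufs6, which holds a zinc site, was at 77.5 and 75.6, 101 and 92.7, and 103 and 109 RPKM (0.48 ± 0.07, adjusted p = 0.00726). In both genes the heterozygous libraries stood clear of wild type. The 10 other accessory genes that rose were Ndufa6, Ndufa10, Ndufa11, Ndufab1, Ndufb5, Ndufb7, Ndufb9, Ndufb10, Ndufb11 and Ndufc2, with log2 changes of 0.27 to 0.37. Ndufb8, the complex I gene of highest level, was at 122 and 115, 131 and 125, and 128 and 133 RPKM and did not pass (0.15, adjusted p = 0.0966). Ndufv3 was at 33.2 and 31.7 RPKM in wild type, 38.6 and 41.5 in heterozygous and 37.8 and 36.0 in mutant libraries, so that its heterozygous libraries lay above both others, and it did not pass in mutant (0.20, adjusted p = 0.0887), in heterozygous against wild type (0.31, adjusted p = 0.0659) or in mutant against heterozygous libraries (-0.11, adjusted p = 0.418).

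Ndufb3 was the 1 structural subunit of complex I with a negative value, -0.29 ± 0.34 (adjusted p = 0.561). Its wild-type libraries were at 57.0 and 25.9 RPKM, the widest gap between 2 replicates among the tested genes in wild type, while the other libraries lay between 30.4 and 35.7. Its sign therefore turned with the library left out: 0.41 in mutant against wild type without wild-type library 1 (adjusted p = 0.101), and -0.76 without wild-type library 2, where it passed as lower (adjusted p = 0.0163). Ndufs5 stood apart in level, at 2.05 to 4.28 RPKM where the other accessory subunits had 12.3 RPKM or more in every library. Reads without a unique alignment are not counted, so genes with near-identical copies, which many subunit genes have as processed pseudogenes, carry an uncertain level.

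The 7 assembly factors that share the Ndufaf symbol help to build complex I and are not part of it. None passed in mutant against wild type (0 of 7 higher, 0 lower, 0 at an unadjusted p under 0.05), with a median of 0.05 and a range of -0.18 to 0.31. Ndufaf5 was at 3.40 and 3.75 RPKM in wild type, 2.89 and 3.06 in heterozygous and 3.29 and 2.97 in mutant libraries. Ndufaf4 was at 12.9 and 14.1, 12.1 and 11.6, and 11.4 and 14.1 RPKM, with the mutant libraries on both sides of wild type.

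Complex II, succinate dehydrogenase, also a step of the citric acid cycle, was split. Sdhd (chr9:50596340-50603849), a membrane anchor, was at 73.8 and 69.2 RPKM in wild type, 88.4 and 78.6 in heterozygous and 98.7 and 94.4 in mutant libraries and rose (0.44 ± 0.07, adjusted p = 0.00885). Sdha, the flavoprotein, was at 69.2 and 68.3, 79.6 and 71.2, and 79.2 and 79.0 RPKM and passed narrowly (0.21 ± 0.06, adjusted p = 0.0472). Sdhb, the iron-sulfur subunit, was at 64.8 and 69.4, 71.6 and 66.4, and 74.7 and 73.1 RPKM (0.15, adjusted p = 0.14). Sdhc, the other anchor, was at 54.3 and 56.7, 54.1 and 54.1, and 55.9 and 54.4 RPKM (0.00 ± 0.06), and its groups overlapped. Sdha lost its call without either mutant library and without either wild-type library, and Sdhd did so without mutant library 1, so that 0 of the 4 genes passed without that library.

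In complex III, the cytochrome bc1 complex, 5 of 8 genes rose (62.5%, beside 17.1% of all genes tested), with a median of 0.24. With ribosomal protein scaling 3 of the 8 rose, where 13.2% of all genes did. Fewer also passed without 1 wild-type or mutant library. The largest changes were in the small subunits. Uqcr11 (chr10:80402997-80406821) was at 108 and 111 RPKM in wild type, 141 and 138 in heterozygous and 162 and 169 in mutant libraries (0.60 ± 0.06, adjusted p = 0.00206). Uqcrq was at 71.3 and 70.0, 91.3 and 84.2, and 104 and 108 RPKM (0.60 ± 0.07, adjusted p = 0.00374). Both genes stepped up from wild type to heterozygous to mutant without overlap. Uqcrh, the hinge protein and the complex III gene of highest level, was at 206 and 219, 218 and 224, and 233 and 252 RPKM (0.20 ± 0.06, adjusted p = 0.0498). Its call was lost with ribosomal protein scaling and without any 1 of the wild-type or mutant libraries. Uqcrb was at 166 and 163, 187 and 179, and 196 and 204 RPKM (0.29, adjusted p = 0.0109). The large core proteins Uqcrc1 and Uqcrc2 and the Rieske iron-sulfur protein Uqcrfs1 had log2 changes of 0.14, 0.16 and 0.20 and did not pass (adjusted p = 0.066, 0.108 and 0.0946).

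In complex IV, cytochrome c oxidase, 11 of 16 tested genes rose (68.8%, beside 17.1% of all genes tested). With ribosomal protein scaling 6 of the 16 rose, where 13.2% of all genes did. Fewer than 11 also passed without 1 wild-type or mutant library. Of the 11 genes that rose, 10 were among the 11 broadly expressed subunits of complex IV. Cox8a (chr19:7215158-7217616), its gene of highest level, was at 202 and 205 RPKM in wild type, 246 and 243 in heterozygous and 287 and 282 in mutant libraries (0.49 ± 0.04, adjusted p = 0.00122). Cox6a1 (chr5:115345652-115348958) was at 166 and 158, 208 and 206, and 228 and 229 RPKM (0.51 ± 0.05, adjusted p = 0.00169). Cox5a was at 121 and 123, 144 and 130, and 176 and 160 RPKM (0.47 ± 0.07, adjusted p = 0.00816). In Cox8a and Cox6a1 replicates lay close together, and in Cox5a they lay further apart in heterozygous and mutant libraries. In these 3 genes no genotype overlapped another. Cox6b1 was at 221 and 226, 228 and 230, and 254 and 255 RPKM, and Cox4i1 at 195 and 206, 208 and 198, and 229 and 231. Both rose by 0.20 in mutant, and both calls were lost with ribosomal protein scaling and without any 1 of the wild-type or mutant libraries. Cox6c, at 122 and 122, 122 and 117, and 130 and 135 RPKM, was the 1 broad subunit that did not pass (0.13, adjusted p = 0.148). Cox7a2l, which joins complexes III and IV into supercomplexes, was at 79.7 and 94.4, 87.5 and 89.0, and 100.3 and 98.2 RPKM (0.20, adjusted p = 0.126).

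The tissue isoforms of complex IV replace a broad subunit in particular tissues, and they were read at low levels beside it. Cox7a1 (chr7:30184171-30186030), the form of heart and skeletal muscle, was at 0.862 and 1.48 RPKM in wild type, 3.09 and 4.30 in heterozygous and 3.40 and 3.72 in mutant libraries, from 13 and 19, 35 and 47, and 47 and 40 reads. It was the largest change of the 88 genes in mutant (1.61 ± 0.39, 3.06-fold, adjusted p = 0.0288), with 1.66 in heterozygous libraries (adjusted p = 0.0677). Its counterpart Cox7a2, of most tissues, was at 86.1 and 91.8, 98.9 and 99.0, and 109 and 120 RPKM (0.37 ± 0.07, adjusted p = 0.0121). The call for Cox7a1 was lost without wild-type library 1 (1.28), without mutant library 1 (1.68) and without mutant library 2 (1.54). It was also lost with the Xist term (1.27), which likewise compares the mutant libraries with wild-type library 2 alone.

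Cox6a2, the heart and muscle form of Cox6a1, had 0 and 0 reads in wild type, 9 and 45 in heterozygous and 6 and 3 in mutant libraries, and was not tested. A count of 0 allows up to 0.0742 and 0.0866 CPM in the wild-type libraries, for counting error only. The library with most Cox6a2 reads, heterozygous library 2, also held the highest heart marker sum, 3259 CPM. Cox7a1 and Cox6a2 were both lowest in the wild-type libraries, where that sum was 297 and 136 CPM. Within the heterozygous group Cox7a1 also went with the sum. Within wild type it went the other way (0.862 and 1.48 RPKM), as within mutant (3.40 and 3.72 RPKM beside sums of 2521 and 1432 CPM). A link between the isoforms and the heart markers was not tested. Cox8b, the heart and muscle form of Cox8a, and Cox8c had 0 reads in all 6 libraries, and Cox7b2 had 1 read in each of 2 libraries. Among the other isoforms, Cox4i2, known from lung, was at 5.11 and 4.94, 4.53 and 7.09, and 4.80 and 4.22 RPKM. Cox6b2, known from testis, was at 3.91 and 4.68, 4.81 and 3.67, and 4.35 and 2.80. Neither passed (adjusted p = 0.706 and 0.573). Ndufa4l2, a relative of Ndufa4 known as a target of hypoxia signalling, was at 8.36 and 8.98, 4.99 and 10.04, and 4.94 and 4.77 RPKM. Its mutant libraries were below wild type, and its change of -0.83 ± 0.33 did not pass (adjusted p = 0.106), while Ndufa4 rose (0.30, adjusted p = 0.0184). Ndufa4l2 passed as lower with the mutant and wild-type libraries alone and without either heterozygous library.

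**Figure D2:**
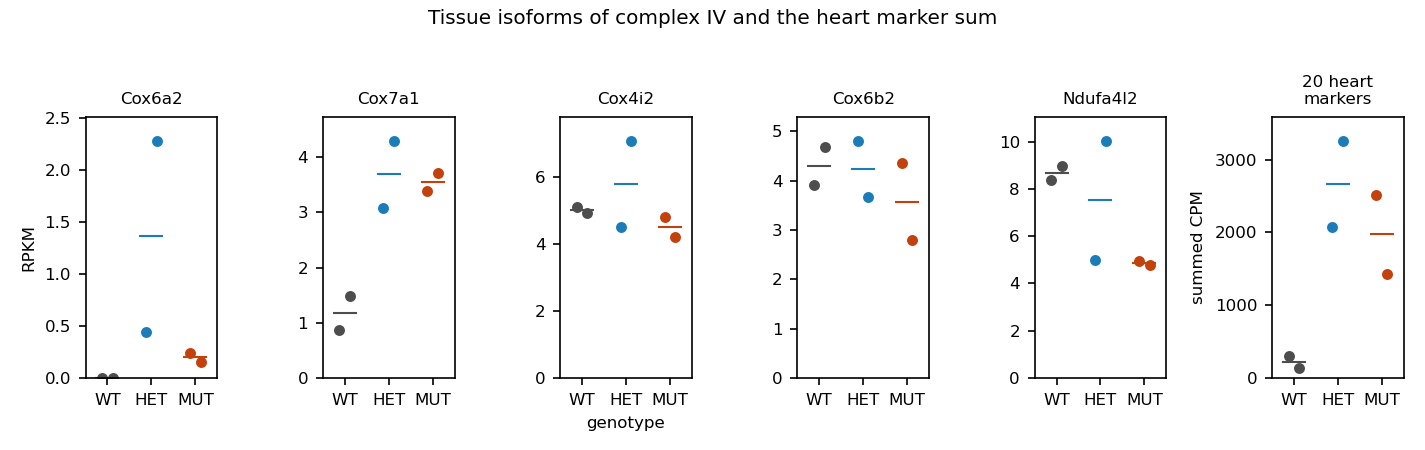
Points are the RPKM of 5 tissue isoforms of complex IV in each library (WT wild type, HET heterozygous, MUT mutant), with the summed CPM of 20 heart markers in the last panel, and lines are means of 2 libraries. Each panel has its own vertical axis from 0. Both Cox7a1 and the heart markers are lowest in wild type, and a link between them was not tested.

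Of the 15 structural subunits of complex V 13 rose. With Atp5s and Atp5sl counted, 14 of 17 genes rose (82.4%, beside 17.1% of all genes tested), and all 17 had positive values. Without 1 wild-type or mutant library 6 or 7 of them passed. All 5 genes of the catalytic head and central stalk rose. Atp5b, the catalytic beta subunit and the gene of highest level among all 92, was at 519 and 541 RPKM in wild type, 691 and 588 in heterozygous and 696 and 637 in mutant libraries (0.34, adjusted p = 0.0384). Atp5a1, the alpha subunit, was at 290 and 305, 362 and 321, and 372 and 352 RPKM (0.29, adjusted p = 0.0315). In both genes the heterozygous libraries overlapped the mutant range. The calls for Atp5a1 and Atp5b were lost without any 1 of the wild-type or mutant libraries and with the Xist term. The stalk genes Atp5c1, Atp5d and Atp5e rose by 0.41, 0.37 and 0.37, and the call for Atp5e was lost in the same fits.

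The 3 genes Atp5g1, Atp5g2 and Atp5g3 encode the same mature c subunit of the rotor ring with different import signals. Atp5g3 (chr2:73908447-73912464) was at 205 and 215 RPKM in wild type, 280 and 261 in heterozygous and 339 and 321 in mutant libraries (0.66 ± 0.06, 1.58-fold, adjusted p = 0.00149). Atp5g1 was at 111 and 101, 122 and 109, and 150 and 143 RPKM (0.48, adjusted p = 0.00871). Atp5g2 was at 284 and 277, 305 and 278, and 320 and 314 RPKM (0.18, adjusted p = 0.0529). So the gene of highest level in wild type, Atp5g2, was passed by Atp5g3 in both mutant libraries. Among 7 genes of the peripheral stalk and membrane part 6 rose, from 0.22 in Atp5h to 0.41 in Atp5o, and Atp5l (0.28, adjusted p = 0.17) did not pass. Of the 2 further genes with the symbol, Atp5sl was at 10.3 and 10.8, 13.4 and 12.2, and 15.5 and 16.4 RPKM and rose (0.60 ± 0.08, adjusted p = 0.00537), while Atp5s, at 3.22 to 4.10 RPKM, did not pass.

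**Figure D3:**
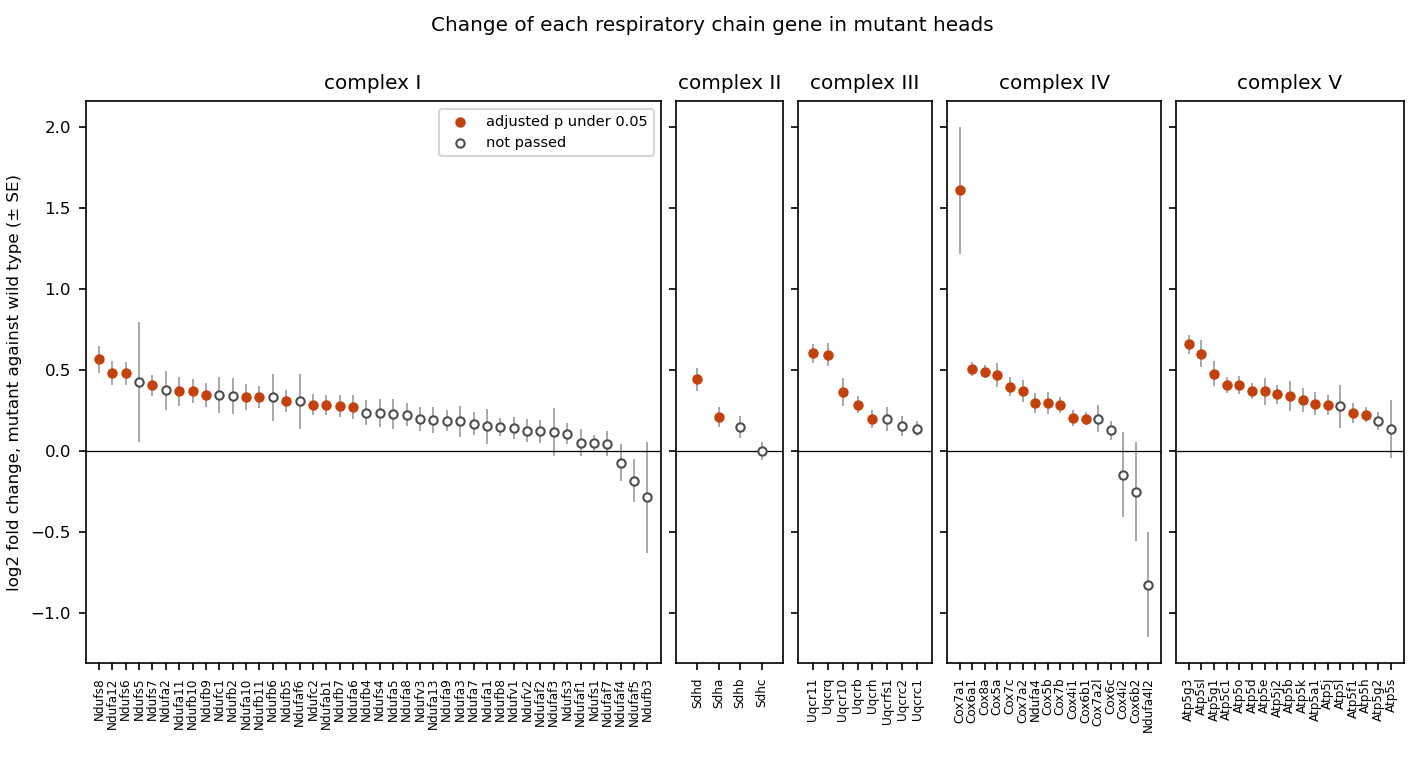
Points are log2 fold changes of mutant against wild type with their standard errors for 87 of the tested genes, by complex, filled where the adjusted p was under 0.05. Values above 0 are 80 of the 87 drawn, and 14 of 42 points are filled in complex I and 14 of 17 in complex V, shares that were not tested against each other.

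Summed over the 74 broadly expressed subunits, RPKM values were 7482 and 7491 in wild type, 8596 and 8040 in heterozygous and 9272 and 9234 in mutant libraries. The mutant mean was 23.6% and the heterozygous mean 11.1% above wild type, and no genotype overlapped another. By complex, the mutant sum was 1.19 times wild type for complex I, 1.16 for II, 1.24 for III, 1.26 for IV and 1.26 for V. The sums of complex V were 2681 and 2732, 3200 and 2911, and 3460 and 3368 RPKM. An exact permutation test of 2 libraries against 2 cannot reach 0.05, and no other test of the sums was run. The deposited RPKM values include a scale of the authors, which differs from library totals by factors of 0.950 to 0.995 against wild-type library 1. As CPM on library totals the mutant sum over the 74 genes was 18.3% above wild type.

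**Figure D4:**
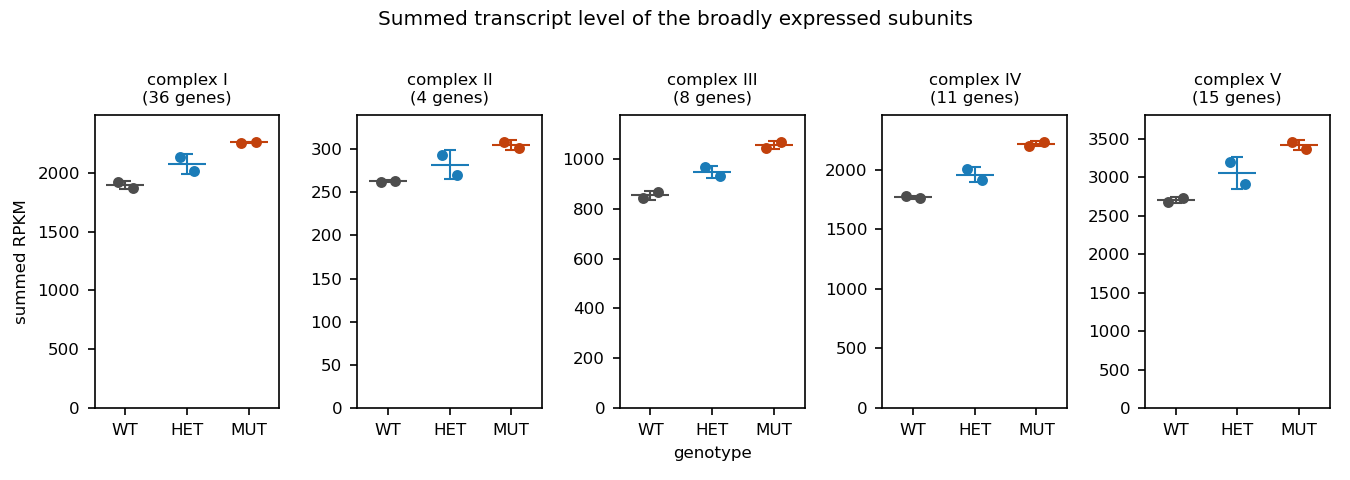
Points are the summed RPKM of the broadly expressed subunits of each complex in each library, with horizontal bars for the mean and vertical bars for the SD of 2 libraries. Vertical axes start at 0 and differ between panels, and in each complex both mutant libraries lie above the heterozygous and wild-type libraries.

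Heterozygous heads, compared with the same wild-type libraries, gave smaller values. Of the 88 genes 5 rose and 0 fell, where 6.03% of all genes rose and 0.533% fell, so that the share of 5.68% was near that of all genes. The 5 genes were Atp5g3 (0.37), Ndufa12 (0.36), Cox6a1 (0.36), Uqcr11 (0.35) and Cox8a (0.27), and all 5 also rose in mutant. Leaving out 1 library left 0 to 3 of them, with 1 (Cox6a1) without wild-type library 1, 0 without wild-type library 2, 0 without heterozygous library 1, 2 without heterozygous library 2 and 3 without either mutant library. The median over the 88 genes was 0.11, beside -0.01 over all genes, and 23 genes (26.1%) had an unadjusted p under 0.05, beside 23.7% of all genes. Both heterozygous libraries lay above both wild-type libraries in 49 of 88 genes, beside 28.7% of all genes. DESeq2 called 14 higher (9.32% of all genes), the fit of the 2 groups alone 3 (4.83%), and the fit with the Xist term 0 (3.34%), with Ndufb3 lower.

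Between mutant and heterozygous libraries 0 of 88 genes passed with the quasi-likelihood test, where 0.0724% of all genes rose and 0.362% fell. At an unadjusted p under 0.05 there were 31 genes (35.2%), beside 21.3% of all genes. DESeq2 called 18 higher (4.6% of all genes), edgeR's likelihood ratio test 3 (2.47%), limma on RPKM 1 (0.0724%) and limma-voom 0 (0.0856%). The median was 0.14, beside 0.00 over all genes, and both mutant libraries lay above both heterozygous ones in 60 of 88 genes, beside 27.6% of all genes. The smallest adjusted p were those of Cox8a (0.22, adjusted p = 0.0799), Ndufs7 (0.35, adjusted p = 0.0815) and Atp5g3 (0.29, adjusted p = 0.0919). With libraries scaled to ribosomal protein genes the median turned to -0.0067. In 36 of 88 genes both heterozygous libraries lay above both wild-type libraries and below both mutant libraries, beside 13.3% of all genes tested. Xist was at 1274 and 1100 CPM in the mutant and at 0.354 and 0.268 in the heterozygous libraries. Genotype and embryo sex cannot be told apart in this comparison, nor in the upper step of that order.

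The 5 genes that rose in both comparisons with wild type were chosen to show their promoters, from RefSeq on GRCm38.p6, the assembly of mm10. Each line gives the 250 bases before 1 RefSeq start of the gene, 5' to 3', with capitals for any match to the cores searched.
Cox6a1, chr5:115348959-115349208, minus strand: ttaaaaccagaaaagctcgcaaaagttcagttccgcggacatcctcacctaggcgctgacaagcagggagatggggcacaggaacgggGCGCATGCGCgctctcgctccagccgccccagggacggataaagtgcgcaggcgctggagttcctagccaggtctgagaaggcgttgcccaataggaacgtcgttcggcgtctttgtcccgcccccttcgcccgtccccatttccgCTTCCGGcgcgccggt
Uqcr11, chr10:80406822-80407071, minus strand: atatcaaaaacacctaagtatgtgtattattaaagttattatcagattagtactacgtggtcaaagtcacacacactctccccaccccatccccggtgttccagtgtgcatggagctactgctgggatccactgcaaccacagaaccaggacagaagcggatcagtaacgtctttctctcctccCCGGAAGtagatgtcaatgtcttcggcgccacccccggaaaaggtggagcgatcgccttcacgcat
Atp5g3, chr2:73911327-73911576, minus strand: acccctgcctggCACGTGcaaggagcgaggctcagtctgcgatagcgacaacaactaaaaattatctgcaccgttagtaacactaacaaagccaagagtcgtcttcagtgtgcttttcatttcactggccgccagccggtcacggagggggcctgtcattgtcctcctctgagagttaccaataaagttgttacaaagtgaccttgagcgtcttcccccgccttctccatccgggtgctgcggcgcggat
Cox8a, chr19:7217617-7217866, minus strand: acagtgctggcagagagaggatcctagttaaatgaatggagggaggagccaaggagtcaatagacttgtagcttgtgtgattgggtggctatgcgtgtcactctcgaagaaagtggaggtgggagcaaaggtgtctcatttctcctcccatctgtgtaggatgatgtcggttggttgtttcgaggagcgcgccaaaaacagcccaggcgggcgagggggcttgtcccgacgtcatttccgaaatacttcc
Ndufa12, chr10:94198785-94199034, plus strand: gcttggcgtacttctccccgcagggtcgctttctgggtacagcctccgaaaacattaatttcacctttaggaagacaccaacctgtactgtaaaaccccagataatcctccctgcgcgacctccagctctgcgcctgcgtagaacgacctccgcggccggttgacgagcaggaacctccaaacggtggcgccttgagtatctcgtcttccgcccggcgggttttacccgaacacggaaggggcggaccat
The motifs were those that textbooks name for respiratory genes, searched on both strands from 250 bases before to 50 after each start: the NRF1 core GCGCATG, the ETS core CCGGAAG of GABP, the YY1 core AAGATGG, the E-box CACGTG and the TATA box TATAAA. In Cox6a1 the NRF1 core lies on both strands, overlapping itself, 162 and 159 bases before the start, with the ETS core 16 bases before it. Uqcr11 has the ETS core 66 bases before its start, and Atp5g3 an E-box, which reads alike on both strands, 238 bases before it. The printed bases of Atp5g3 lie inside the gene span given above, while those of the other genes lie next to their gene span. Ndufa12 held none of the 5 in its window. The ETS core of Cox8a and the NRF1 core of Uqcr11 reach past the start, in whole or in part, and are not marked.

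RefSeq promoters matched 76 of the 92 genes. The NRF1 core was in 15 of 76 genes (19.7%), beside 4.41% of 27025 genes with a promoter and 7.32% of the tested genes. The ETS core was in 17 (22.4%, beside 9.93% and 18%), and the YY1 core in 12 (15.8%, beside 7.28% and 7.84%). For the E-box it was 7 (9.21%, beside 8.09% and 11.4%), and for the TATA box 7 (9.21%, beside 15.7% and 8.98%). Among the 41 of these genes that rose in mutant, 6 held the NRF1 core, 12 the ETS core and 7 the YY1 core, and among 33 tested genes that did not pass it was 9, 5 and 5. A match is a string of letters and no measured site.

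Regulators of mitochondrial biogenesis were followed by the same test. Nrf1 had 78.9 and 73.3 CPM in the wild-type libraries, beside 74.9 and 78.2 in the mutant ones (0.01, adjusted p = 0.938), and Tfam, the mitochondrial DNA packaging factor, at 85.1 and 87.6 and at 86.9 and 88.6 (0.02, adjusted p = 0.76). Gabpa, an ETS factor, fell by 0.28 (adjusted p = 0.0141) and Yy1 fell by 0.16 (adjusted p = 0.0437). Of 18 tested regulators of mitochondrial biogenesis 4 rose (22.2%) and 2 fell, near the 17.1% and 13.6% of all genes. Whether any regulator had a part in the respiratory changes was not tested. The 4 that rose were Polg, the mitochondrial DNA polymerase (1.38, adjusted p = 0.00404), and the estrogen-related receptors Esrra (0.79, adjusted p = 0.00774), Esrrb (1.56, adjusted p = 0.0374) and Esrrg (2.12, adjusted p = 0.00723). Esrra was at 12.6 and 14.7, 19.1 and 18.5, and 25.3 and 21.8 CPM, in 3 groups that did not overlap.

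Genes that surround the chain are given by the same counts, beside the 17.1% of all genes tested that rose and the 13.6% that fell. Lists were not tested against each other. Assembly factors had 0 of 14 higher and 1 lower for complex I (Nubpl, which inserts iron-sulfur clusters, -0.47, adjusted p = 0.0299), 0 of 2 for complex II and 0 of 5 for complex III. For complex IV 2 of 21 rose, the copper chaperone Cox17 (0.86, adjusted p = 0.00207) and Surf1 (0.34, adjusted p = 0.0252), and for complex V 1 of 5 rose, the ATPase inhibitor Atpif1 (0.50, adjusted p = 0.00292). Among the carriers of electrons and the enzymes of ubiquinone synthesis 7 of 16 rose, led by Etfa (0.61, adjusted p = 0.00811) and Coq9 (0.52, adjusted p = 0.0171), with cytochrome c, Cycs, at 0.21 (adjusted p = 0.0183). Of 16 citric acid cycle and pyruvate dehydrogenase genes 6 rose, led by Ogdh (0.46, adjusted p = 0.0111) and Mdh2 (0.27, adjusted p = 0.0149), and 2 fell, Pdha1 (-0.32, adjusted p = 0.00547) and Suclg2 (-0.23, adjusted p = 0.0177).

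Ribosomal protein genes give a further pair of large housekeeping families. Of 76 mitochondrial ribosome genes 17 (22.4%) rose and 1 fell, with a median of 0.12. Of 77 cytosolic ribosome genes 27 (35.1%) rose and 0 fell, with a median of 0.14. Over all genes tested 17.1% rose and 13.6% fell. Both medians lay below the 0.28 of the 88 respiratory genes. In mutant against wild type the direction was not particular to those. Values were above 0 in 74 of 77 cytosolic and 64 of 76 mitochondrial ribosome genes, beside 81 of 88. Both mutant libraries lay above both wild-type ones in 68 and 54 ribosome genes, beside 78 of 88. Between mutant and heterozygous libraries the cytosolic ribosome median was 0.15, beside 0.14. Both mutant libraries lay above both heterozygous ones in 73 of 77, beside 60 of 88. In heterozygous against wild type the families parted. The medians were -0.003 for the cytosolic and 0.03 for the mitochondrial ribosome, beside 0.11. Values were above 0 in 37 of 77 and 47 of 76, beside 79 of 88. Both heterozygous libraries lay above both wild-type ones in 11 and 23 ribosome genes, beside 49 of 88 and 28.7% of all genes. Scaled to the cytosolic ribosome, the mitochondrial ribosome median turned to -0.01, with 5 genes higher and 4 lower, and 2 of 16 carrier genes and 1 of 16 citric acid cycle genes rose. The respiratory genes were short and highly read: their median transcript length, implied by counts and RPKM, was 747 bases beside 2849 for all genes tested. Spearman's rho between that length and the log2 fold change in mutant was -0.34 over the 88 genes and -0.15 over all genes tested, where the points share 6 libraries and the part of length was not tested.

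**Figure D5:**
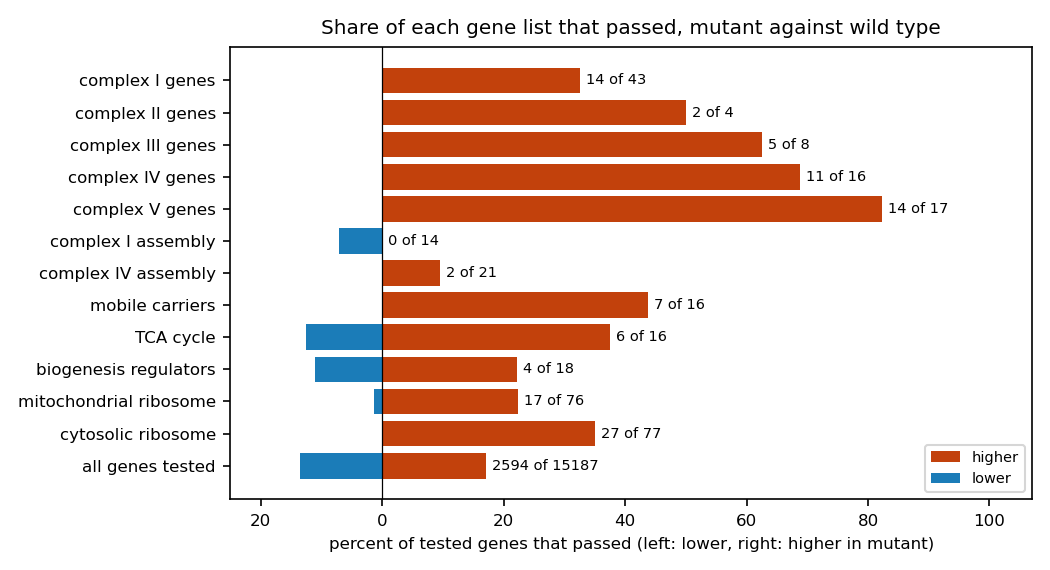
Bars give the percent of tested genes in each list that rose (right) or fell (left) in mutant against wild type, with the number that rose and the number tested beside each bar. The bar of complex V (14 of 17, with Atp5s and Atp5sl counted) stands beside 2594 of 15187 for all genes tested.

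Of the 92 genes 3 lie on the X chromosome. Ndufb11 was at 56.7 and 58.9 RPKM in wild type, 61.7 and 62.7 in heterozygous and 74.7 and 69.9 in mutant libraries (0.33 ± 0.07, adjusted p = 0.0171). Cox7b was at 88.4 and 83.6, 89.3 and 90.4, and 104 and 104 RPKM (0.28 ± 0.05, adjusted p = 0.0109). Ndufa1 was at 48.6 and 54.3, 54.1 and 63.7, and 56.8 and 56.9 RPKM (0.15, adjusted p = 0.326). The Xist term compares the mutant libraries with wild-type library 2 alone. With the Xist term the values were 0.30 for Ndufb11 (adjusted p = 0.0885), 0.32 for Cox7b (adjusted p = 0.0385) and 0.07 for Ndufa1 (adjusted p = 0.728).

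In the authors' deposited table of mutant against wild type, 22 of the 92 genes were higher at a false discovery rate under 0.05 and 0 were lower, where 8.74% of all 24062 genes were higher and 5.56% lower. Of those 22 genes 21 were among the 46 found here, 95.5% of the deposited calls and 45.7% of the calls made here. The authors' deposited table gives log2 fold changes of 0.48 for Cox8a and 0.50 for Cox6a1 and lists Cox6a2, with 0 reads in wild type, as higher at a false discovery rate of 0.0202.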

How the data were processed

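The submitters' processing notes name the build mm10 and, without giving their roles, HTSeq 0.6.1p2, TopHat2 2.0.11, edgeR 3.8.6, Trim Galore 0.4.0, cutadapt 1.8, FastQC 0.11.2 and bcl2fastq 2.17. Neither the annotation nor the strand setting is given in the sources used here, which leaves overlapping genes uncertain. Raw counts, as deposited, cover 24062 symbols. Their 5 summary lines stayed out of library sizes (no feature 8.93% to 10.5%, ambiguous 1.04% to 1.08%, not unique 12.7% to 14.5%). A deposited series table gives RPKM per library, and the authors' log2 fold change, likelihood ratio score, p-values and false discovery rates.

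The counts, taken by the title in each file name, went into edgeR 4.0.16 under R 4.3.3 (quasi-likelihood F-test, TMM, filterByExpr by group, all 6 libraries in 1 fit, 3 residual degrees of freedom, Benjamini-Hochberg at 0.05, 15187 genes). Every adjusted p not otherwise named is from this fit, and the SE is the size of the log2 value over the root of its F statistic. Single-gene CPM use TMM library sizes and sums use library totals. A biological coefficient of variation of 0.182 was common to all genes. Counts under 50 were left out of the match of files to RPKM columns. In simulated counts of 15187 genes for mutant against wild type, the fit recovered 3 of 100 genes changed 1.3-fold and 81 of 100 changed 2-fold, with 10 false among 94 calls.

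Alternatives were RLE factors, library totals, ribosomal protein scaling, no filter, DESeq2 1.42.0, limma-voom and limma on log2(RPKM + 0.1) (limma 3.58.1), the likelihood ratio test, the 2 compared groups alone, a term for Xist over 10 CPM, files as attached and each library left out. The values of 1 gene are not reported here, though counts and sums include it. Genes, lists and tests were chosen with earlier results of these data known. Values in every library are given for the 8 largest changes that passed in each direction per contrast (or the 3 smallest p where none passed), the tissue isoforms, the X-linked genes, the 2 genes of highest level per complex and the Sdh genes; other genes printed with values for each library were added after their values were seen. Lists named besides those described had these counts in mutant against wild type. Of 8 endothelium markers 1 rose, of 9 head mesenchyme markers 6 and of 11 tested trunk and tail bud markers 6. Of 11 stress response genes 1 rose and of 10 tested erythroid markers 1 fell, where 17.1% of all genes rose and 13.6% fell.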

Additional observations from a re-analysis of the deposited data

How the results depend on the processing

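With the count files as attached, the median log2 fold changes were -0.0103 (mutant against wild type) and -0.0153 (heterozygous against wild type), 0 genes were higher in any complex, and single genes turned sign in mutant against wild type: Atp5a1 -0.0142, Atp5b -0.0483, Atp5g3 -0.0259, Cox6a1 -0.0324, Cox7b -0.042, Cox8a -0.00786, Ndufa12 -0.0208, Ndufa4l2 0.0474, Ndufaf4 0.212, Ndufaf5 0.00293, Ndufb11 -0.0323, Ndufb8 -0.0124, Ndufs8 -0.0126, Ndufv3 -0.0723, Sdha -0.0138, Sdhc 0.00899 and Sdhd -0.0802. Under the same setting Atp5g3 and Cox8a were at -0.0127 and -0.00408 in heterozygous against wild type and at -0.0132 and -0.00378 in mutant against heterozygous. The exchange of the files is the construction of that alternative.

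In mutant against wild type, ribosomal protein scaling left 21 genes higher (by complex I to V 4, 1, 3, 6 and 7), where 13.2% of all genes rose. The Xist term left 19 (4, 1, 2, 5 and 7), where 10.3% of all genes rose. Library totals, no filter, the likelihood ratio test and limma on RPKM each left 1 of complex II. With the 2 groups alone 1 gene was lower, Ndufa4l2. In heterozygous against wild type (5 higher), ribosomal scaling gave 9, DESeq2 14, limma on RPKM 9, the 2 groups alone 3 and the Xist term 0 with 1 lower, Ndufb3. In mutant against heterozygous (0 higher), DESeq2 gave 18, the likelihood ratio test 3 and limma on RPKM 1, and ribosomal scaling turned the median to -0.0067. Summed as CPM from counts, the mutant ratios for complexes I to V were 1.14, 1.12, 1.15, 1.21 and 1.21 and the heterozygous ratio for complex III was 1.07. The cause was not tested for these.

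Leaving out 1 library gave 18 to 46 genes higher and 0 to 1 lower in mutant against wild type (complex I 4 to 14, II 0 to 2, III 2 to 4, IV 4 to 12, V 6 to 15), and 0 to 3 higher and 0 to 1 lower (Ndufb3) in heterozygous against wild type, where fewer libraries also mean fewer degrees of freedom. The lone library left is then assumed to vary like the other groups. Genes near 0 changed sign over the fits that left out 1 library: Cox6b2 from -0.604 to 0.0204 (without mutant library 2), Ndufaf4 from -0.241 to 0.078 (without mutant library 1), and Ndufb3 from -0.757 to 0.406 in mutant and from -0.875 to 0.267 in heterozygous libraries (both highest without wild-type library 1). Ndufb3 was at 0.391 in mutant with the Xist term, and Sdhc, from -0.0169 to 0.0179 over the fits that left out 1 library, at 0.0082 with RLE factors, 0.00882 with DESeq2, 0.00229 with limma-voom, 0.00018 with the likelihood ratio test, 0.0179 without wild-type library 2 and 0.0125 without mutant library 2. No paired analysis was possible because the labels give no replicate numbers shared by the genotypes. Depth limits Cox6a2, Cox7b2 and Cox7a1, with 0 to 47 reads in a library. In the simulated counts 3 of the 100 genes changed 1.3-fold were recovered, but far fewer genes changed there than in the data. That rate is not one for the respiratory genes. A gene that did not pass is not shown to be unchanged.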
